A study of Mus musculus with 12 samples.

Results

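The receptor chains of the interleukins and interferons that act through JAK kinases were read in mouse blood progenitors that carry a mutant of the transcription factor PU.1. The members are 10 listed genes (Il2rg, Il4ra, Il13ra1, Il10ra, Il10rb, Il6ra, Il6st, Ifngr1, Ifngr2 and Ifnar1), taken wherever the platform annotation gives a probe set exactly 1 of these symbols. Of the 10 genes, 9 were measured, by 24 of the 45037 probe sets tested, and stand among 18193 genes with a probe set of their own; Il2rg, the common gamma chain, is not analysed here. Where a gene has several, the brightest one on average leads, and the others serve as checks.

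The tested cells were homozygous for the PU.1 Q202L knock-in (KI), an exchange in the Ets domain of PU.1 that, by the study's design, keeps DNA binding and abolishes the interaction with c-Jun, and the controls were wild-type (WT) littermates from heterozygous breeding. The sample records give sorted newborn liver of C57Bl/6 mice, with 3 samples each of KI ST-HSC (short-term hematopoietic stem cells), of WT ST-HSC, of KI GMP (granulocyte-macrophage progenitors, a population the study calls GMP-like in mutants) and of WT GMP. The records and the study's methods give one CD34+ gate for GMP, while its results describe the mutant cells as intermediate for CD34. The records give ST-HSC as lin- Sca-1+ c-kit+ CD150- CD48+, while the series title and the study give CD48-, and the study describes fetal liver and a mixed strain background. The mutation is constitutive, so every cell of a KI animal carries it, and no source used here says whether a sample was 1 animal or a pool. P-values are thus relative to a spread between samples that may be technical.

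Class I and class II cytokine receptors are built from chains without an enzyme of their own. A ligand brings 2 different chains together, the JAK kinases bound to their tails phosphorylate each other and the receptor, and STAT factors that dock there move to the nucleus. Several chains are shared: IL-13 is read by IL-13RA1 with IL-4RA, IL-4 also by IL-4RA with the common gamma chain, IL-6 by IL-6RA with gp130 (Il6st), which also serves LIF, oncostatin M and IL-11, and IL-10 by IL-10RA with IL-10RB, which also serves IL-22. Interferon gamma binds IFNGR1 and needs IFNGR2 to signal, and the type I interferons use IFNAR1 with IFNAR2. In blood progenitors these receptors are known for bringing inflammatory signals to stem cells, and the IL-6 and interferon gamma receptors for their use by myeloid cells.

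PU.1 is an ETS factor that binds GGAA-centered sites, so the 250 bases upstream of the annotated start were read for the members that differed on these arrays. RefSeq (GRCm38.p6) gave such a window for 8 of the 10 members; Il10ra and Il10rb are named only. The 3 windows shown belong to the genes whose lead probe set passed the test in a population. They are written 5′ to 3′ on the strand of the gene, with GGAAGT (an ETS core) and the letters of GAGGAA (the PU.1 box), read on either strand, in capitals.
Il13ra1 (chrX:36111858-36112107, plus strand): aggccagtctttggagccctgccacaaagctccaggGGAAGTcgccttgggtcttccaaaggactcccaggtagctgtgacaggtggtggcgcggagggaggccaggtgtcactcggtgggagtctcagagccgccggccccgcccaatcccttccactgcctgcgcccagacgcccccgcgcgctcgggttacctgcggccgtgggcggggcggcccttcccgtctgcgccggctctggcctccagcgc
Il6ra (chr3:89913197-89913446, minus strand): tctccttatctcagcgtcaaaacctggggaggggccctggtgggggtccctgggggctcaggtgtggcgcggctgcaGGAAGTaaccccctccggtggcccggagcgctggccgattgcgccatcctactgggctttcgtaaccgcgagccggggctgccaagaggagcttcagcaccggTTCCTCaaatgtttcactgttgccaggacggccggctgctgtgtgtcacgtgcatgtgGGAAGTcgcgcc
Ifngr2 (chr16:91546809-91547058, plus strand): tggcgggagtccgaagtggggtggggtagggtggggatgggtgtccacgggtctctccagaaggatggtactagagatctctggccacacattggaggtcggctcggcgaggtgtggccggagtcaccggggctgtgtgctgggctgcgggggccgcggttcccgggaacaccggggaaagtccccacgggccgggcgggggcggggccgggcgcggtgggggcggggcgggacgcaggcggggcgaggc
In the Il13ra1 window GGAAGT ends at base -209, counted back from the start. The Il6ra window holds it at -173 to -168 and at -12 to -7, and holds GAGGAA on the opposite strand at -70 to -65, where it reads TTCCTC. The Ifngr2 window holds neither string, though the shorter letters GGAA, which were not counted, occur in it. Over the 8 member windows, GGAAGT was in 3 and GAGGAA in 2, against 19.7% and 23.3% of 32851 windows of the same length. The AP-1 strings TGANTCA and TGANNTCA were in 0 of the 8, against 6.75% and 11.9% of all windows. Both strands were searched, and the first 2 strings can overlap in the letters GGAA. These are matches of letters in a short window, and no binding was measured here.

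All values are the authors' log2 RMA values of Affymetrix MG430 v2 arrays, where 1 unit is a doubling of signal. RMA sets each array's distribution, and a probe set's level depends on its probes, so levels were not compared between genes. The array medians ran from 5.00 to 5.10 in ST-HSC and from 4.70 to 4.79 in GMP, so that levels of the populations stand side by side without a test. KI minus WT was fitted within each population with limma over all 12 arrays and adjusted after Benjamini-Hochberg over all probe sets, and a call is an adjusted p under 0.05. Arrays carry no read depth, and with 3 arrays against 3 an exact two-sided permutation test of a single gene cannot give a p below 0.1. Spi1, which encodes PU.1, averaged 8.14 in KI and 7.97 in WT ST-HSC (adjusted p = 0.80) and 8.65 in KI and 8.26 in WT GMP (adjusted p = 0.38); a point mutation need not show in these probes, so this level checks no label. Xist marks cells with an inactive X chromosome. It was at 2.98 to 3.78 on all 6 KI arrays and on WT replicate 2 of each population. On WT replicates 1 and 3 of each it was at 10.67 to 11.74, so the sex of the animals is not balanced between the genotypes. A fit without these WT arrays of high Xist keeps only WT replicate 2 in each population. For that fit only the size of a difference is given, and whether a call was kept or lost is not read.

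In ST-HSC, 2 of the 9 measured receptor chains were lower in KI than in WT cells and 0 were higher. The 2 were Il13ra1, the IL-13 binding chain, and Ifngr2, the signaling chain of the interferon gamma receptor. Among all genes 1.68% were called lower and 1.33% higher. In GMP, 1 of 9 was lower, Il6ra, the IL-6 binding chain, and 0 were higher, against 1.4% lower and 1.19% higher among all genes. The median log2 difference of the members was -0.47 in ST-HSC and -0.19 in GMP, beside -0.02 and -0.03 over all genes. Every KI array lay below every WT array for 4 of 9 members in ST-HSC (Il13ra1, Il6ra, Ifngr2 and Ifnar1), where 11.2% of all genes did so, and for 2 of 9 in GMP (Il6ra and Ifngr2), where 11.1% did so. Counted by probe set, 6 of 24 were called lower in ST-HSC (1.19% of all probe sets) and 1 of 24 in GMP (1.07%). Of the 6 in ST-HSC, 4 belong to the single gene Il13ra1, 1 to Ifngr2 and 1 to Il6st, so they are not separate members. In bulk samples, fewer cells of a type and less RNA per cell cannot be told apart.

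**Figure D1:**
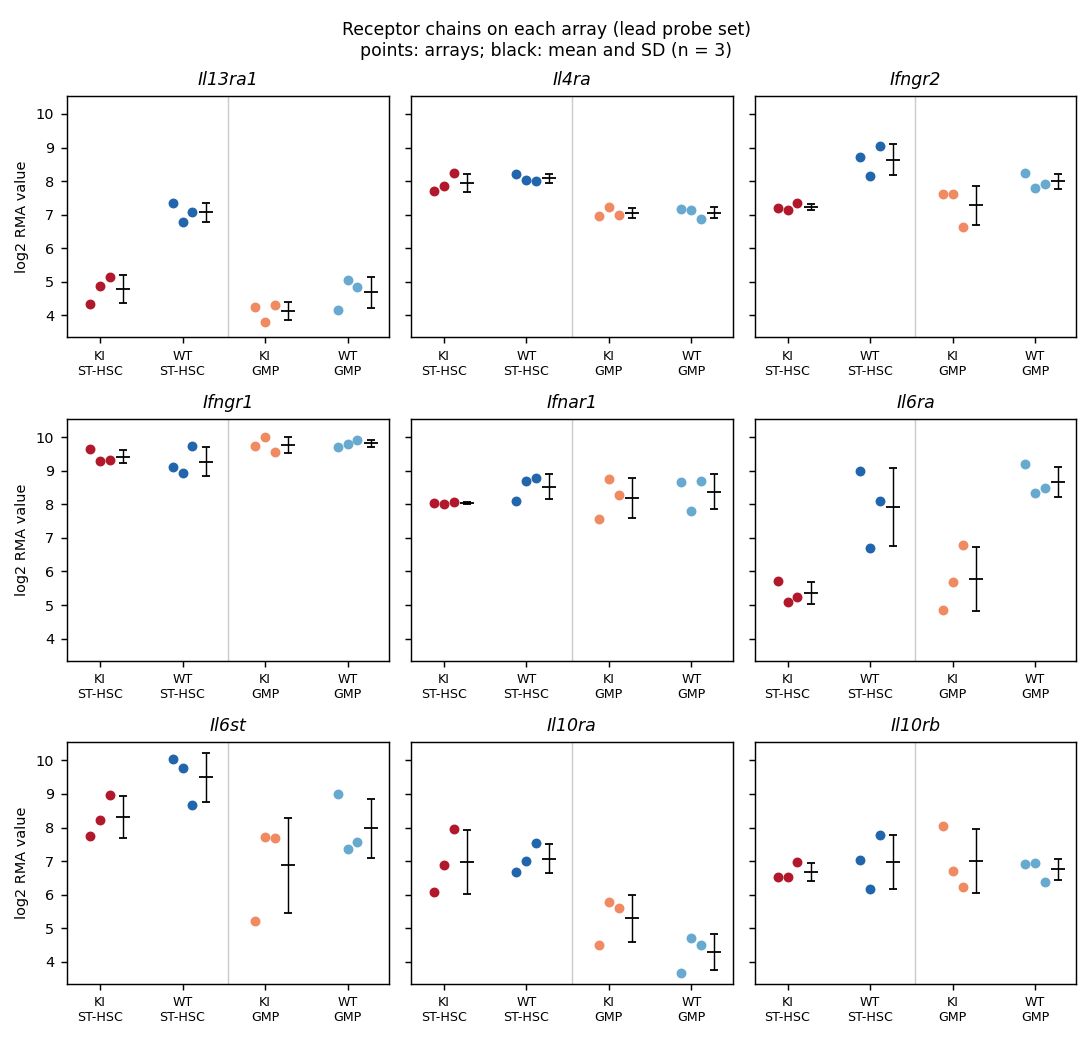
Log2 RMA value of the lead probe set of each measured receptor chain (vertical axis) on the KI and WT arrays of ST-HSC and then of GMP (colored points, replicates 1 to 3 from left to right), with the mean and SD of 3 arrays in black. Il13ra1 stood at 4.33 to 5.14 in KI ST-HSC and 6.77 to 7.35 in WT ST-HSC, and Il6ra was lower on every KI array than on every WT array of its population.

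Among the chains that bind IL-4 and IL-13, Il13ra1 was low in KI ST-HSC. Its lead probe set 1427164_at stood at 4.33, 4.87 and 5.14 in KI ST-HSC, against 7.35, 6.77 and 7.08 in WT ST-HSC. The 3 KI arrays lay well below the 3 WT arrays. The difference was -2.29 (SE 0.28, 95% interval -2.91 to -1.67, adjusted p = 0.0019), a level 4.89-fold lower in KI. In GMP the lead probe set stood at 4.25, 3.82 and 4.30 in KI cells, against 4.15, 5.05 and 4.86 in WT cells. These arrays overlapped, with a difference of -0.56 (interval -1.18 to 0.06, adjusted p = 0.41). The study itself listed Il13ra1 from these samples, so its fall is not independent evidence.

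Il13ra1 has 5 probe sets, and in ST-HSC every one had all KI arrays below all WT arrays, with 4 of the 5 called. Probe set 1427165_at had the largest difference of these, at 3.38, 2.91 and 2.74 in KI ST-HSC, against 6.55, 7.06 and 7.22 in WT ST-HSC (-3.94, SE 0.43, adjusted p = 0.0011). Probe set 1451775_s_at varied least between replicates, at 3.10, 2.93 and 3.07 in KI and 5.14, 5.37 and 5.50 in WT ST-HSC (-2.31, SE 0.13, adjusted p = 2.0e-05). Probe set 1454783_at differed by -1.50 (adjusted p = 0.0068), and 1425625_at, low on every array, by -0.49 (adjusted p = 0.19). The call of 1454783_at was lost in the 6 ST-HSC arrays alone (adjusted p = 0.066) and with Xist as a covariate (-1.32, adjusted p = 0.0504). Without the WT arrays of high Xist its difference was -1.12. In GMP 0 of the 5 was called, and the smallest of their adjusted p was that of the lead. At 1427165_at the GMP arrays read 2.10, 2.62 and 2.59 in KI and 4.03, 2.17 and 2.29 in WT cells, so that WT replicate 1 stood apart from the rest. The lower quartile of all probe sets was at 3.31 to 3.41 on the GMP arrays, and most of these readings lie under it, where RMA compresses differences.

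**Figure D2:**
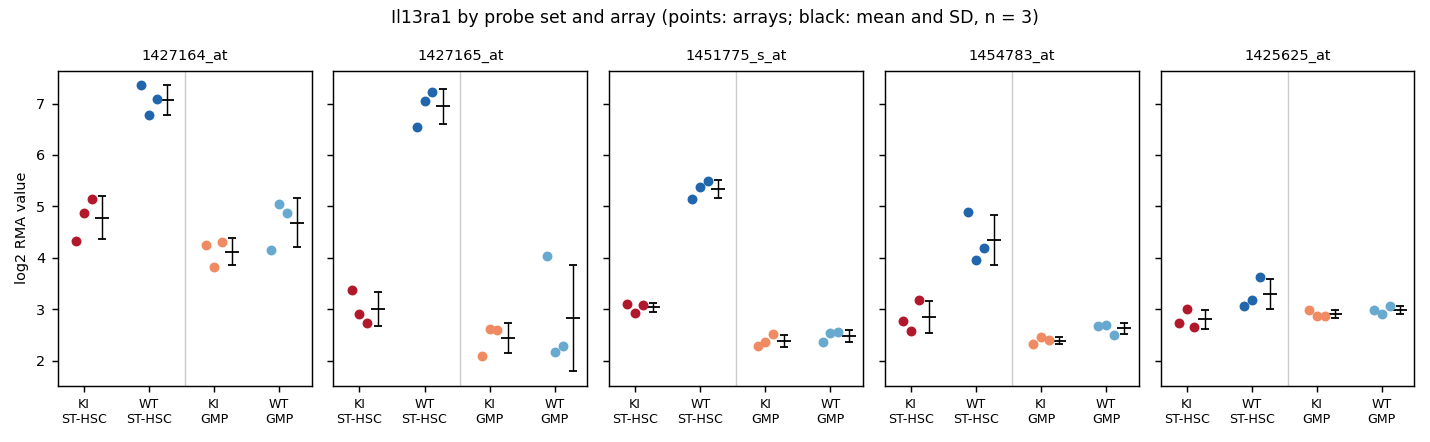
Log2 RMA value (vertical axis) of the 5 probe sets of Il13ra1, ordered by mean level, on the KI and WT arrays of ST-HSC and then of GMP (colored points), with the mean and SD of 3 arrays in black. In ST-HSC every KI point lies below every WT point in each panel, while GMP arrays lie low in both genotypes.

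The difference of the 2 differences (KI minus WT in GMP less KI minus WT in ST-HSC) was tested for every probe set. For Il13ra1 it passed at 1451775_s_at, at 2.21 (SE 0.19, interval 1.79 to 2.63, adjusted p = 0.0027). It did not pass at the lead, at 1.73 (interval 0.85 to 2.61, adjusted p = 0.20), nor at 1427165_at, at 3.54 (adjusted p = 0.097). With the mean of all 5 probe sets in place of the lead it was 1.83 (adjusted p = 0.0016). This was the single member probe set of 24 to pass, where 0.0488% of all probe sets did so.

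Il4ra, the chain that pairs with IL-13RA1, did not move with it. It stood at 7.71, 7.87 and 8.23 in KI ST-HSC and 8.23, 8.03 and 7.99 in WT ST-HSC, with overlapping arrays (-0.14, interval -0.51 to 0.22, adjusted p = 0.81). In GMP it averaged 7.06 ± 0.15 in KI and 7.06 ± 0.17 in WT cells (SD, n = 3 each), with a difference of 0.0005 (interval -0.36 to 0.36, adjusted p = 0.999). Of its other 2 probe sets, 1447858_x_at read 0.52 in ST-HSC (adjusted p = 0.40) and 1423996_a_at -0.15 (adjusted p = 0.91), so that the 3 did not share a sign.

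Of the interferon receptor chains, Ifngr2 was lower in KI ST-HSC. Its lead probe set 1423557_at stood at 7.21, 7.15 and 7.34 in KI ST-HSC, against 8.72, 8.16 and 9.06 in WT ST-HSC. The 3 KI arrays lay close together and all below the WT arrays. The difference was -1.41 (SE 0.29, interval -2.06 to -0.77, adjusted p = 0.033), 2.66-fold lower in KI. In KI GMP it read 7.61, 7.61 and 6.62, against 8.26, 7.81 and 7.91 in WT GMP, again without overlap (-0.71, interval -1.36 to -0.07, adjusted p = 0.28). The other probe set, 1423558_at, differed by -0.62 in ST-HSC and by -0.38 in GMP (adjusted p = 0.36 and 0.61). The call in ST-HSC did not hold with the Xist level as a covariate, where the difference was -1.05 (adjusted p = 0.15). Without the WT arrays of high Xist, which leaves WT replicate 2 alone, the difference was -0.93. Leaving out single arrays ended the call in 5 of 12 cases (adjusted p up to 0.14). These were the fits without KI ST-HSC replicate 1, 2 or 3 and without WT ST-HSC replicate 1 or 3.

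Ifngr1, the chain that binds interferon gamma, was read at similar values in both genotypes. It stood at 9.63, 9.28 and 9.33 in KI ST-HSC and 9.12, 8.92 and 9.75 in WT ST-HSC (0.15, interval -0.32 to 0.62, adjusted p = 0.86). In GMP it read 9.73, 10.02 and 9.56 in KI cells and 9.71, 9.80 and 9.92 in WT cells (-0.04, interval -0.52 to 0.43, adjusted p = 0.97). The arrays of the genotypes overlapped in both populations.

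Ifnar1, a chain of the type I interferon receptor, read 8.05, 8.02 and 8.08 in KI ST-HSC and 8.09, 8.70 and 8.77 in WT ST-HSC. The KI arrays were all below the WT arrays, the nearest pair at 8.08 and 8.09, and the difference of -0.47 was not called (interval -1.19 to 0.25, adjusted p = 0.63). In GMP it read 7.56, 8.74 and 8.27 in KI cells and 8.65, 7.79 and 8.70 in WT cells, overlapping (-0.19, adjusted p = 0.88). Its second probe set 1442222_at differed by -0.24 in ST-HSC and 0.37 in GMP. Its partner Ifnar2 was called lower in ST-HSC, at -1.02 (adjusted p = 0.0083), and read -0.48 in GMP (adjusted p = 0.19). Ifnar2, Il10rb, Ifnar1 and Ifngr2 lie in this order on chromosome 16 with 0 protein-coding genes between them in the RefSeq annotation, and of the 4 neighbors the outer ones, Ifnar2 and Ifngr2, were those called.

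Of the IL-6 receptor, the ligand-binding chain Il6ra was low in KI cells of both populations. Its lead probe set 1452416_at stood at 4.86, 5.69 and 6.78 in KI GMP, against 9.19, 8.34 and 8.50 in WT GMP. No KI array reached the lowest WT array, and the difference was -2.90 (SE 0.58, interval -4.19 to -1.61, adjusted p = 0.032), 7.46-fold lower in KI. In ST-HSC it read 5.73, 5.10 and 5.25 in KI cells and 9.0, 6.69 and 8.08 in WT cells, also without overlap. The difference was -2.56 (SE 0.58, interval -3.85 to -1.28), 5.92-fold lower in KI, and did not pass the threshold (adjusted p = 0.052). It was -1.76 with the level of Xist as a covariate (adjusted p = 0.20) and -1.33 without the WT arrays of high Xist. The difference between the populations was -0.33 (interval -2.15 to 1.49, adjusted p = 0.96). The other probe set, 1422270_a_at, read -1.42 (adjusted p = 0.11) in ST-HSC, where the arrays did not overlap, and -0.83 (adjusted p = 0.37) in GMP, where they did.

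The call of Il6ra in GMP rests on a narrow margin. It was lost in 8 of the 12 fits that left out an array, with adjusted p from 0.052 to 0.10: without each of KI ST-HSC replicates 1, 2 and 3, KI GMP replicates 1 and 2 and WT GMP replicates 1, 2 and 3. It was also lost in a fit of the 6 GMP arrays alone (adjusted p = 0.088) and with Xist as a covariate (-2.11, adjusted p = 0.14). Without the WT arrays of high Xist, Il6ra read -2.56 in GMP. In ST-HSC, the mean of its probe sets was called, at -1.99 (adjusted p = 0.016).

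Il6st, which encodes the shared signaling chain gp130, varied widely between replicates at its lead probe set 1421239_at. It read 7.75, 8.22 and 8.98 in KI ST-HSC and 10.04, 9.78 and 8.67 in WT ST-HSC, and the arrays overlapped (-1.18, interval -2.71 to 0.36, adjusted p = 0.55). In GMP it read 5.23, 7.70 and 7.68 in KI cells and 8.99, 7.37 and 7.56 in WT cells (-1.10, adjusted p = 0.55). KI GMP replicate 1 was the low one and WT GMP replicate 1 the high one. All 4 probe sets of the gene had a negative difference in both populations, and 1 was called: 1452843_at read 6.68, 6.42 and 6.74 in KI ST-HSC, against 8.03, 8.07 and 8.36 in WT ST-HSC (-1.54, SE 0.32, adjusted p = 0.034). Its call was lost without the WT arrays of high Xist (-1.46, adjusted p = 0.057), with Xist as a covariate (-1.20, adjusted p = 0.15) and in 7 of the 12 fits without an array, those without any single ST-HSC array and without KI GMP replicate 3 (adjusted p up to 0.15).

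The chains of the IL-10 receptor were not called in either population. Il10ra, the ligand-binding chain, read 6.07, 6.89 and 7.96 in KI ST-HSC and 6.69, 7.0 and 7.54 in WT ST-HSC (-0.10, interval -1.20 to 1.0, adjusted p = 0.97). In GMP it was the member with the most positive difference, at 4.49, 5.79 and 5.61 in KI cells and 3.68, 4.71 and 4.49 in WT cells (1.01, interval -0.10 to 2.11, adjusted p = 0.41). All 3 of its probe sets read higher in KI GMP. At 1437808_x_at the GMP arrays did not overlap, at 6.57, 5.24 and 5.73 in KI and 3.84, 4.80 and 4.53 in WT cells (1.45, adjusted p = 0.080). In ST-HSC the probe sets other than the lead also read higher in KI, by 0.50 at 1437808_x_at (adjusted p = 0.66) and 1.36 at 1456173_at (adjusted p = 0.42). At 1456173_at every KI ST-HSC array lay above every WT ST-HSC array. The mean of the 3 Il10ra probe sets was called in GMP, at 1.35 (adjusted p = 0.012), and read 0.59 in ST-HSC (adjusted p = 0.27). Il10rb, the shared second chain, averaged 6.67 ± 0.26 in KI and 6.98 ± 0.80 in WT ST-HSC (-0.31, adjusted p = 0.87) and 6.99 ± 0.95 in KI and 6.75 ± 0.32 in WT GMP (0.24, adjusted p = 0.90; SD, n = 3 each). The wide intervals of this lead probe set, -1.36 to 0.74 in ST-HSC and -0.82 to 1.29 in GMP, do not settle a direction. The other Il10rb probe set, 1429959_at, read -0.79 in ST-HSC (interval -1.59 to 0.01, adjusted p = 0.39). In GMP it read -0.09 (adjusted p = 0.96), and its arrays overlapped in both populations.

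**Figure D3:**
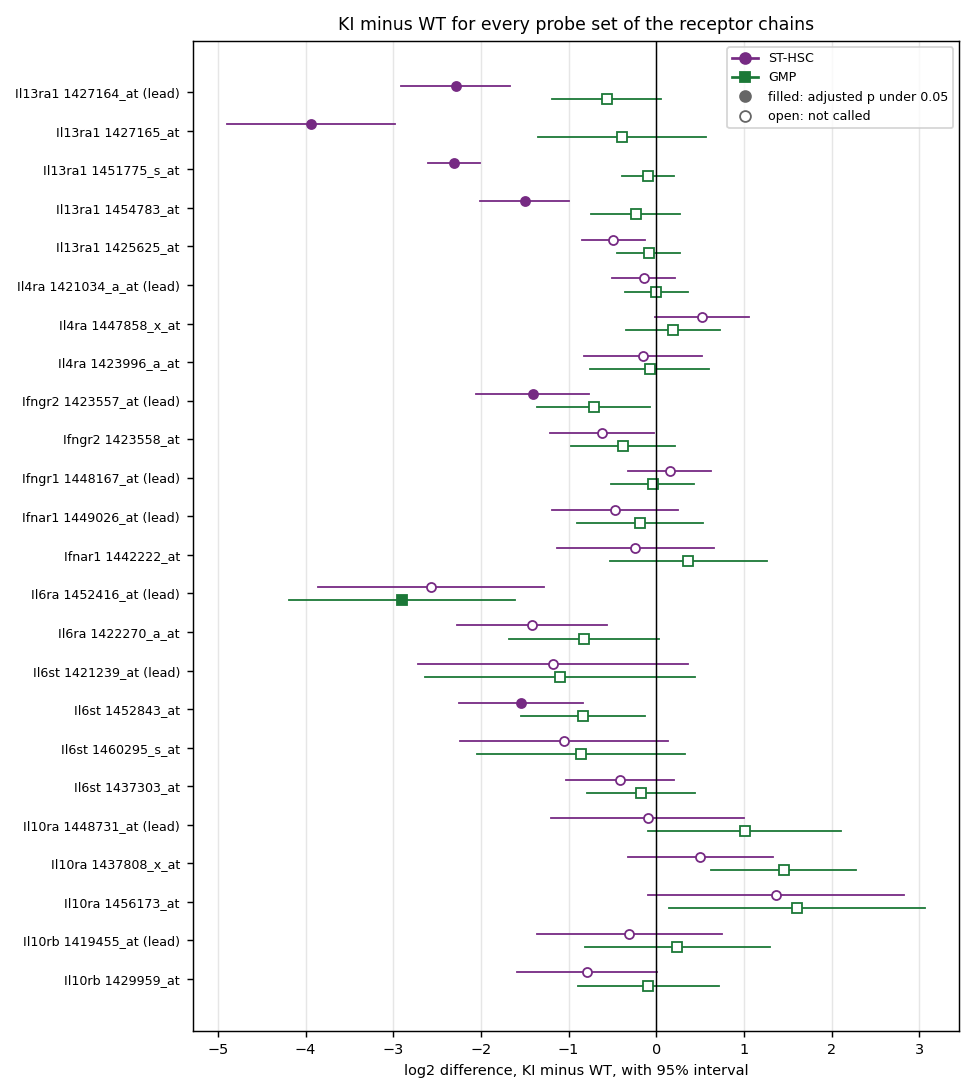
Log2 difference of KI minus WT (horizontal axis) with its 95% interval for each of the 24 probe sets of the receptor chains, in ST-HSC (purple circles) and GMP (green squares); filled symbols passed an adjusted p of 0.05. The 4 called probe sets of Il13ra1, 1 of Ifngr2 and 1 of Il6st in ST-HSC and the lead of Il6ra in GMP are filled and lie left of 0.

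For the 3 members with the smallest adjusted p in each population, the genes with the most similar pattern were sought by Pearson correlation over the 12 arrays after the mean of each population was removed. These arrays share the KI and WT groups, so a high correlation is a description. For Il13ra1 they were Ppp1r14a (r = 0.98), P2rx7, a receptor for extracellular ATP (r = 0.96), and Id3, an inhibitor of basic helix-loop-helix factors (r = 0.95), with ST-HSC differences of -1.78, -2.0 and -2.07. For Ifngr2 they were Lipa, the lysosomal acid lipase (r = 0.99), Ap1s3, a clathrin adaptor subunit (r = 0.96), and Tbxas1, thromboxane synthase (r = 0.96). For Il6ra they were Gm13012 (r = 0.99), Rgs19, a regulator of G protein signaling (r = 0.96), and Milr1, an inhibitory receptor of mast cells (r = 0.95), with GMP differences of -2.28, -1.17 and -1.95. For Il10ra the correlations were lower, at 0.92 for Ap3m2, 0.89 for Adam8 and 0.87 for Ces1g.

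Of 29 other measured interleukin and interferon receptor chains, 4 were called lower in ST-HSC and 0 higher, and the median difference was -0.04. Besides Ifnar2 they were Il7r, the IL-7 receptor alpha chain of early lymphoid cells (-4.74, adjusted p = 0.0052), Il1r1, the signaling IL-1 receptor (-3.05, adjusted p = 0.026), and Lifr, which pairs with gp130 to read LIF (-1.44, adjusted p = 0.013). In GMP 1 of the 29 was called lower, Il5ra, the IL-5 binding chain (-2.48, adjusted p = 0.0022), and the median was -0.01. The calls of Il7r and Il5ra held in each of the 12 fits without an array and with Xist as a covariate. That of Ifnar2 was lost in the 6 ST-HSC arrays alone (adjusted p = 0.065), and Ifnar2 read -1.06 without the WT arrays of high Xist. The call of Lifr was lost with Xist as a covariate (-1.0, adjusted p = 0.051) and in the 6 ST-HSC arrays alone (adjusted p = 0.083). It was also lost without KI ST-HSC replicate 1 or 3 or WT ST-HSC replicate 3 (adjusted p up to 0.058). Without the WT arrays of high Xist, Lifr read -0.77. Il1r1 lost its call with Xist as a covariate (adjusted p = 0.12) and without KI ST-HSC replicate 1, 2 or 3 or WT ST-HSC replicate 1 or 3 (adjusted p up to 0.12). Of 10 measured JAK kinases and STAT factors, 0 were called in either population. Stat3, which acts downstream of gp130, differed by 0.34 in ST-HSC and by 0.15 in GMP (adjusted p = 0.65 and 0.87), and Stat5a by 1.36 and by -0.02 (adjusted p = 0.22 and 0.99). Tyk2, a kinase bound to IFNAR1, read -1.31 in ST-HSC with KI arrays below WT arrays (adjusted p = 0.084) and was picked out after its value was seen. Of 17 inhibitors of the pathway 0 were called in either population, and Socs7 and Ptpn2 read 0.01 and 0.28 in ST-HSC and -0.06 and 0.02 in GMP.

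Of 16 measured ligands of these receptors, 0 were called in ST-HSC and 1, Il6, was called higher in KI GMP. Il6 read higher there by 2.22 (adjusted p = 0.011), at 5.35, 4.28 and 5.77 in KI and 3.11, 3.29 and 2.33 in WT GMP. Il6ra was called lower in the same population, and a link between them was not tested. The WT readings of Il6 lay under the lower quartile of the GMP arrays (3.31 to 3.41). Both filters on low values left Il6 out. Its call was lost with Xist as a covariate (1.99, adjusted p = 0.066) and in the 6 GMP arrays alone (adjusted p = 0.12). Without the WT arrays of high Xist, Il6 read 1.84. Of 17 textbook STAT target genes, 5 were called lower in ST-HSC and 0 higher, with a median of -0.56 beside -0.02 for all genes. Of these, 4 are genes of the interferon response: Irf7 (-2.09, adjusted p = 0.0030), Irf9, the DNA-binding partner of the STATs (-1.70, adjusted p = 0.029), Ifit1 (-2.96, adjusted p = 0.036) and Mx1 (-1.05, adjusted p = 0.010). The fifth was Bcl6, a repressor (-1.49, adjusted p = 0.048). In GMP 0 of the 17 were lower and 1 was higher, Arg1, an enzyme that IL-4 and IL-13 induce in macrophages (2.34, adjusted p = 0.027), and the median was 0.10. Of these 5 target genes in ST-HSC, only Irf7 was still called with Xist as a covariate. With the covariate Ifit1 read -3.07 (adjusted p = 0.097), Bcl6 -1.71 (adjusted p = 0.077), Irf9 -1.46 (adjusted p = 0.13) and Mx1 -0.85 (adjusted p = 0.064). Without the WT arrays of high Xist they read -3.14, -1.73, -1.50 and -0.70, in the same order. In the 6 ST-HSC arrays alone Mx1, Irf9 and Bcl6 were not called (adjusted p = 0.057, 0.065 and 0.11), and Bcl6 was not called either with array medians subtracted or with the trend and robust setting of eBayes (adjusted p = 0.050 and 0.054). In the 12 fits without an array, Irf7 and Mx1 kept their calls, and the others lost theirs in 5 (Irf9: KI ST-HSC replicates 1 and 2, WT ST-HSC replicates 1, 2 and 3), 8 (Ifit1: all ST-HSC replicates but WT replicate 1, and the 3 of WT GMP) and 9 (Bcl6: the same and KI GMP replicate 1). Arg1 lost its call in 5, without KI ST-HSC replicate 2, KI GMP replicate 1 or 3 or WT GMP replicate 2 or 3. The call of Arg1 was also lost in the 6 GMP arrays alone (adjusted p = 0.089), and Arg1 read 2.43 without the WT arrays of high Xist.

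**Figure D4:**
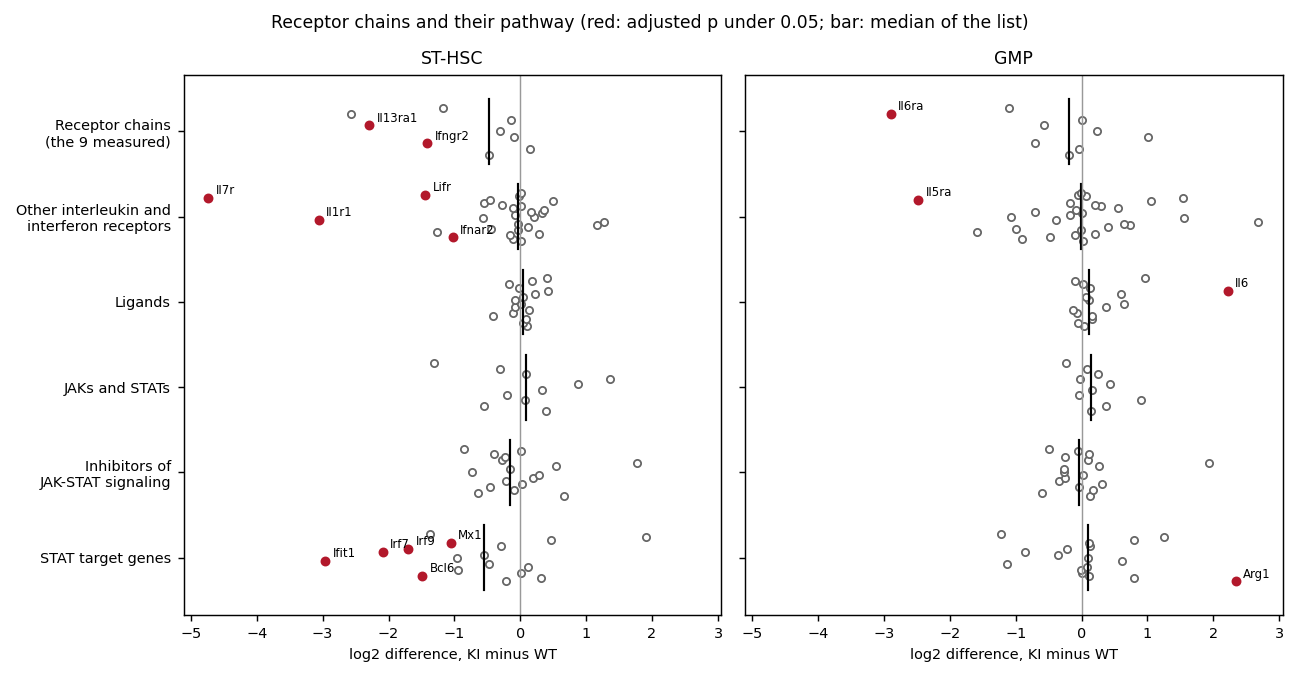
Log2 difference of KI minus WT (horizontal axis) in ST-HSC (left panel) and GMP (right panel) for the 9 measured receptor chains and the genes of 5 related lists, 1 point per gene by its lead probe set; red points passed an adjusted p of 0.05 and bars mark the list medians. The called genes lie left of 0 in ST-HSC, and in GMP Il6ra and Il5ra lie left and Il6 and Arg1 right of 0.

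Markers of other cell types differed between the genotypes as well, some lists lower and some higher in KI cells. Of 14 markers of monocytes and macrophages, 4 were lower in KI ST-HSC and 3 in KI GMP, and their mean level was 4.57 to 4.82 on the KI and 6.35 to 6.72 on the WT arrays of ST-HSC, and 4.95 to 5.19 on the KI and 6.03 to 6.18 on the WT arrays of GMP. The median log2 difference of the list was -0.95 in ST-HSC and -0.56 in GMP. Of 9 dendritic cell markers 4 were lower in KI ST-HSC and 0 in KI GMP, with mean levels of 4.60 to 4.87 on the KI and 6.58 to 8.28 on the WT arrays of ST-HSC, and 4.07 to 4.23 on the KI and 4.64 to 5.12 on the WT arrays of GMP. Of 9 B lymphoid markers, a list that holds Il7r, 4 were lower in KI ST-HSC and 1 in KI GMP, with mean levels of 4.16 to 4.31 on the KI and 6.05 to 7.20 on the WT arrays of ST-HSC, and 4.16 to 4.87 on the KI and 4.36 to 5.03 on the WT arrays of GMP. Of 10 erythroid markers 4 and of 9 megakaryocyte and platelet markers 2 were higher in KI ST-HSC, with mean levels of 6.96 to 7.52 on the KI and 5.74 to 6.05 on the WT arrays for the erythroid list and of 6.46 to 6.69 on the KI and 5.19 to 5.81 on the WT arrays for the other. The part of these cells in the differences of Il13ra1, Ifngr2 and Il6ra was not tested.

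Of 9 markers of mast cells, basophils and eosinophils, 3 were higher in KI ST-HSC, and 2 were higher and 1 lower in KI GMP. Their median difference was 1.57 in ST-HSC and 0.91 in GMP, and their mean level was 7.20 to 7.64 on the KI and 5.81 to 7.19 on the WT arrays of ST-HSC, and 7.78 to 8.76 on the KI and 7.57 to 8.39 on the WT arrays of GMP. Of 7 hepatocyte markers 1 was lower in each population, with mean levels of 5.44 to 5.56 on the KI and 5.81 to 6.85 on the WT arrays of ST-HSC. Of 9 stem and progenitor cell genes 1 was lower in ST-HSC and 2 in GMP, where their mean level was 6.27 to 6.83 on the KI and 7.33 to 7.41 on the WT arrays. Of 9 granulocyte markers 0 were called in ST-HSC and 1 was lower in GMP, of 9 T and NK markers 1 was lower in ST-HSC and 1 higher in GMP, and of 8 endothelial markers 1 was higher in GMP. The part of these cells was not tested either. Among the genes of the sort, Cd34 was lower in KI ST-HSC (-1.41, adjusted p = 0.0010). In GMP it read -2.87, which is given as a description only, since the study gated those cells on CD34 and calls the KI cells intermediate for it. Slamf1 (CD150, a difference of 1.92) and Fcgr3 (a chain of CD16/32, 1.68) were higher in KI ST-HSC (adjusted p = 0.0013 and 0.0017), a population gated as CD150-. Kit, Cd48 and Fcgr2b were not called in either population.

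**Figure D5:**
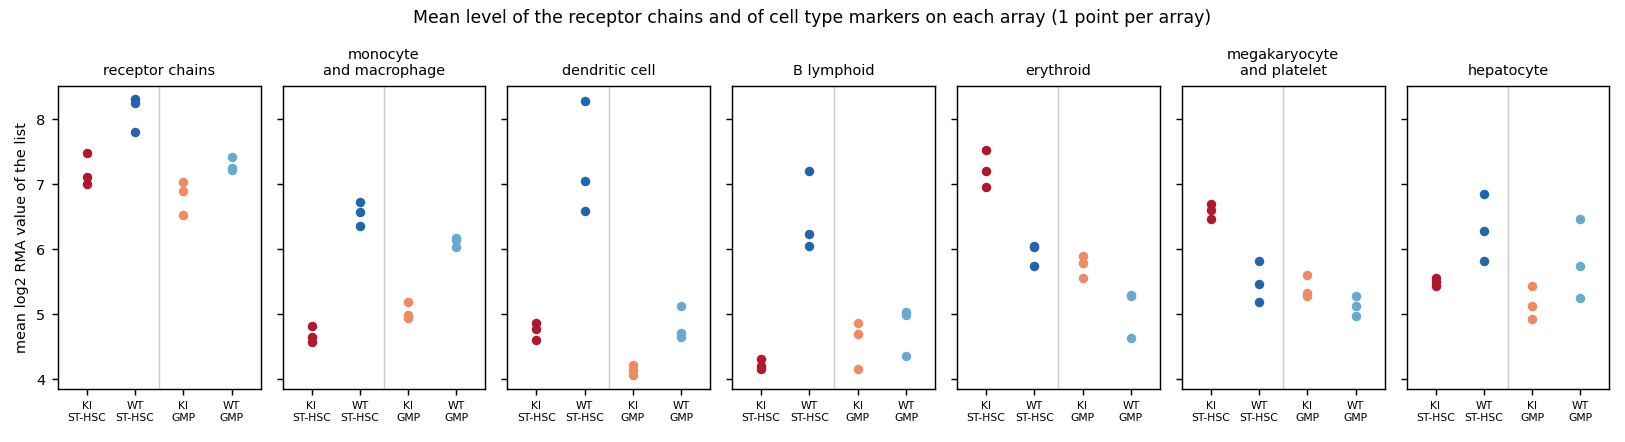
Mean log2 RMA value (vertical axis) of the 9 measured receptor chains and of 6 lists of cell type markers on each array, with KI left of WT and ST-HSC left of GMP and 1 point per array. The receptor chains averaged 7.0 to 7.48 on the KI and 7.80 to 8.30 on the WT arrays of ST-HSC, and the monocyte and macrophage, dendritic cell and B lymphoid lists were lower on the KI arrays of ST-HSC as well.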

How the data were processed

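Log2 RMA values of 45101 probe sets on 12 Affymetrix MG430 v2 arrays were used as deposited. The authors amplified 10 ng of RNA linearly, hybridized it, and made the log2 values by RMA (background correction, quantile alignment of arrays, 1 summary per probe set) in R-Bioconductor; version and genome build are not given in the sources used here. Without read depth, precision is limited by the 3 arrays a group. After 64 control probe sets were left out, 45037 were fitted without a filter, with limma 3.58.1 (lmFit, eBayes) in R 4.3.3, 4 group means and 8 residual degrees of freedom. Symbols came from the platform annotation: 34945 probe sets have 1, 932 several and 9160 none. The members and lists were chosen with earlier results of these data known. Named were all members, up to 6 called genes of each pathway list (or the 2 of highest mean where none was called), the sort markers and the 3 genes most like each of the leading members; of marker lists, counts, medians and levels are given. Samples of the same number did not deviate together across genotypes (correlations of -0.04 to 0.07), and the main fit pairs no KI with a WT sample. With 3 arrays a group this check cannot exclude that samples of the same number were handled together. Whether ST-HSC and GMP samples of the same number came from the same animals was not checked. Xist was high on WT replicates 1 and 3 of both populations, and the main fit treats all 12 arrays as independent. SAM, the methods' test, was written anew with 20 permutations. Upstream windows and gene order came from RefSeq GRCm38.p6. The fit was tested on simulated data.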

Additional observations from a re-analysis of the deposited data

Results flagged for a closer look

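The KI minus WT difference of Il13ra1 at probe set 1451775_s_at was not the same in the populations. The difference in GMP less that in ST-HSC was 2.21 (SE 0.19, limma adjusted p = 0.0027), with -0.10 in GMP and -2.31 in ST-HSC. It stayed past the threshold in each of the 12 fits without an array (2.13 to 2.30, adjusted p up to 0.018), with Xist as a covariate (2.21, adjusted p = 0.0057) and without the WT arrays of high Xist (2.18, adjusted p = 0.047). Signal in GMP was low in both genotypes, at 2.29 to 2.51 in KI and 2.35 to 2.55 in WT cells, below the lower quartile of those arrays, and a further fall is hard to read there.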

How the results depend on the processing

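The fall of Il13ra1 in KI ST-HSC kept its direction under every alternative run and its call under all but SAM and the methods' t-test (adjusted p = 0.15); SAM called its probe sets 1427165_at and 1451775_s_at, and Il6st at 1452843_at. The called members numbered 2 in ST-HSC, and 3, through Il6ra, with array medians subtracted, quantile normalization, either filter on low values, trend and robust eBayes, and the mean of all probe sets (adjusted p = 0.016 to 0.048). They numbered 1 with the replicate block, with a log2 limit of 2 and with Xist as a covariate. They numbered 0 by SAM and by the methods' t-test (3 at an unadjusted p under 0.05, 3 by limma). In GMP they numbered 1, and 2 with the mean of all probe sets. They numbered 0 there with the 6 arrays alone, SAM, the methods' t-test (1 unadjusted, 2 by limma) and Xist as a covariate. Leaving out an array gave 1 to 3 in ST-HSC and 0 to 1 in GMP. For the difference of the differences, 0 members were called, and 1 with the mean of all probe sets.

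All called probe sets numbered 996 in ST-HSC, and 162 by SAM, 7 by the t-test and 426 with a limit of 2 (491 to 1039 without an array). In GMP they numbered 959, and 246 with the 6 arrays alone, 43 by SAM, 2 by the t-test, 319 with a limit of 2, 607 with the Xist covariate and 449 without high Xist (548 to 1093 without an array). For the difference of the differences 22 were called, and 7 with a mean above the median probe set, 12 with the replicate block, 14 with a limit of 2 and 114 without high Xist (7 to 59 without an array). The deviations showed no pairing of KI with WT samples but cannot exclude one, and results of the replicate block are given in this section. It took Ifngr2 to an adjusted p of 0.060, Il6st at 1452843_at to 0.064, Bcl6 to 0.072 and Ifit1 to 0.079.

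Signs turned only for differences that were not called. With array medians subtracted Il4ra in GMP was -0.033, and with quantile normalization Ifngr1 in GMP was 0.034. With the mean of all probe sets they were Il4ra 0.073 and Il10ra 0.59 in ST-HSC, Ifnar1 0.088 in GMP, and for the difference of the differences Il4ra -0.035 and Il6ra 0.13. With the Xist covariate they were Il10rb 0.030 in ST-HSC, and Il4ra -0.011 and Ifngr1 0.14 in GMP. Without the WT arrays of high Xist they were Il10rb 0.51 in ST-HSC, Il4ra -0.091, Ifnar1 0.40 and Il13ra1 at 1427165_at 0.27 in GMP, and for the difference of the differences Il4ra -0.0016 and Il10rb -0.48. Without an array, Il10ra ran from -0.59 to 0.35, Il10rb from -0.72 to 0.081 and Ifngr1 from -0.020 to 0.39 in ST-HSC; Il10rb from -0.29 to 0.62, Ifnar1 from -0.49 to 0.12, Il4ra from -0.096 to 0.054, Ifngr1 from -0.17 to 0.061 and Il13ra1 at 1427165_at from -0.72 to 0.20 in GMP; and for the difference of the differences Il6st from -0.34 to 0.90, Il6ra from -0.87 to 0.28 and Ifnar1 from -0.014 to 0.60.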
